A study of Mus musculus with 21 samples.

Results

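The collagen genes of the liver were compared between mice lacking Gata4 in a subtype of endothelial cells and their control siblings. They were the rows of the expression table whose whole platform symbol reads Col, digits, a, digits, which gave 44 genes of 25428 in all. The choice used symbols only, and no measured value. Whole livers of 21 mice were measured on Affymetrix arrays, 1 array per animal. The 10 knockout livers came from a cross of Gata4 floxed mice with a driver strain carrying the Clec4g-icre transgene on a C57BL/6N background, in which a Clec4g promoter directs Cre to sinusoidal endothelial cells. The 11 control livers carry the genotype label wt; whether they bore the driver or the floxed allele, and the sex and age of the animals, are not stated in the sources used here. All 21 livers carry the diet label std and none is labelled with a drug or other agent.

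Sample numbers in the descriptions fall into 2 runs, run 1 with 5 controls and 4 knockouts and run 2 with 6 of each, and run was a term in the genotype fit over all livers. Values were log2 RMA signals with a median of 3.75 on every array, so 1 log2 unit is a doubling. The 8 hepatocyte markers averaged 11.29 to 13.77 in the control livers, against an upper quartile of 6.12 over all rows. Gata4, the targeted gene, spanned 6.34 to 7.35 in controls with a median of 6.68 and 6.10 to 6.92 in knockouts with a median of 6.51. These ranges overlapped, and the difference of -0.19 ± 0.10 (SE) did not pass (adjusted p = 0.26 in limma). Which part of Gata4 the probes cover is not given in the sources used here. In whole tissue, fewer cells of a type and less RNA per cell cannot be told apart.

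Collagens are secreted proteins built of chains wound in threes into a helix. Fibrillar collagens, chiefly types I and III in the liver, assemble into the fibrils that carry load and that make up scar; FACIT collagens sit on fibril surfaces; type IV forms the sheet of the basement membrane; type VI forms beaded filaments around cells and fibrils. Hepatic stellate cells and portal fibroblasts are known as the main sources of fibrillar collagen. Sinusoidal endothelium, in contrast to that of ordinary capillaries, rests on no continuous basement membrane, and deposition of one is a textbook feature of capillarized sinusoids.

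Promoter windows are shown for 2 pairs of neighbouring partner genes, because members of 1 pair moved together and members of the other did not. Each is 250 bases before to 50 after an annotated start, from RefSeq on GRCm38.p6, printed 5′ to 3′ on the strand of its gene. In the windows of Col4a1 and Col4a2, which are transcribed away from each other, the capitals mark the 78 bases that both windows contain, chr8:11312777-11312854. In the windows of Col6a1 and Col6a2 they mark GC boxes, read as GGGCGG on either strand.
Col4a1, minus strand, chr8:11312777-11313076: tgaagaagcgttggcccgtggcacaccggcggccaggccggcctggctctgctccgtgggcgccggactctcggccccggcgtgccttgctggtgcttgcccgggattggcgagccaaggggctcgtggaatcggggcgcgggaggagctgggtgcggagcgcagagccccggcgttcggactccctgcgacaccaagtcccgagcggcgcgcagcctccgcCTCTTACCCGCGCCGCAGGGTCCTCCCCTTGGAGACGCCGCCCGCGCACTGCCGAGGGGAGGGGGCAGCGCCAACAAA
Col4a2, plus strand, chr8:11312555-11312854: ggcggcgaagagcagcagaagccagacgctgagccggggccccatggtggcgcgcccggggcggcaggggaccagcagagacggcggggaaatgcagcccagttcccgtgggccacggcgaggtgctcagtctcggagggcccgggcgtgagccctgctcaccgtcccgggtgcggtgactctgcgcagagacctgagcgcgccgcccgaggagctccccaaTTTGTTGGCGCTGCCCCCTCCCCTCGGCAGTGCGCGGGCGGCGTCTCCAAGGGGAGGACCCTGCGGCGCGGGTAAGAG
Col6a1, minus strand, chr10:76725995-76726294: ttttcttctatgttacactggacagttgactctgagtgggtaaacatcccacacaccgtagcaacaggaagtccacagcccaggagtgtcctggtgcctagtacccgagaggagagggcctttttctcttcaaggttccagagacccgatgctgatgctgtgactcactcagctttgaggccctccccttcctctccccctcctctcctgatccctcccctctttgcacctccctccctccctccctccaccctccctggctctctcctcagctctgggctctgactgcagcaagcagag
Col6a2, minus strand, chr10:76623355-76623654: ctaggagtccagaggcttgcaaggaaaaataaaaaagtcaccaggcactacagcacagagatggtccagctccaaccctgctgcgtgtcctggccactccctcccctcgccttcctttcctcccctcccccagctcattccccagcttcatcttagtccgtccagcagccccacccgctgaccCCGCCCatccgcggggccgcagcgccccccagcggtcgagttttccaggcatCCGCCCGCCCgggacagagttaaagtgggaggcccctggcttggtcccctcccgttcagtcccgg
The shared stretch was 73.1% G or C and contained a GC box. Col6a1 had no GC box in its window. The window of Col6a2 shown held 3, and its other RefSeq window, not shown, held 1. RefSeq windows were found for 35 of the 44 collagen genes, 38 windows in all. A GC box was present in 60.5% of the collagen windows, against 35.7% of the 32851 windows of all genes. CCAAT was present on either strand in 34.2% of collagen windows and 37.4% of all windows, and TATAAA in 13.2% and 13.6%. A GATA form, either AGATAA or TGATAA with its last base A or G, occurred on either strand in 15.8% of collagen windows and 29.8% of all windows. Of the 6 genes with a window among those that passed the genotype test below, 1, Col27a1, held a GATA form, 3 held a GC box, 2 held CCAAT and 0 held TATAAA. These matches describe letters in a window and are not binding sites.

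In the knockout livers, transcripts of the common basement membrane chains Col4a1 and Col4a2, of the beaded filament chains Col6a1 and Col6a3, of the FACIT Col14a1 and of the fibril chain Col1a1 rose. Col15a1, a collagen of the basement membrane zone, and Col27a1, a fibrillar collagen best known from cartilage, fell. The remaining 36 collagens did not pass. So 6 of 44 collagens were higher, 13.6%, against 3.28% of all 25428 rows, and 2 were lower, 4.55%, against 4.05% of all rows; in either direction it was 18.2% against 7.33%. At an unadjusted p under 0.05 the limma fit gave 9 higher and 8 lower collagens, 20.5% and 18.2%, against 9.41% and 13% of all rows. The median difference over the 44 genes was -0.03, and over all rows -0.01. Of the collagens 15 lay above 0 and 29 below, and of all rows 11473 lay above 0 and 13955 below. All 8 genes that passed moved the same way in both runs. The fit that chose them used both runs, so this is not a separate test. All 8 were among the 28 collagens whose control mean was at least the array median. Of the 16 dimmer collagens 0 passed (limma), with 1 higher and 2 lower at an unadjusted p under 0.05. Without each liver in turn, the higher count ranged from 4 to 8 and the lower count from 0 to 3. Without control replicate 3, Col1a2 and Col3a1 passed too and the higher count was 8. The calls for Col1a1, Col6a3, Col15a1 and Col27a1 were lost in 15, 8, 11 and 11 of the 21 omissions.

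**Figure D1:**
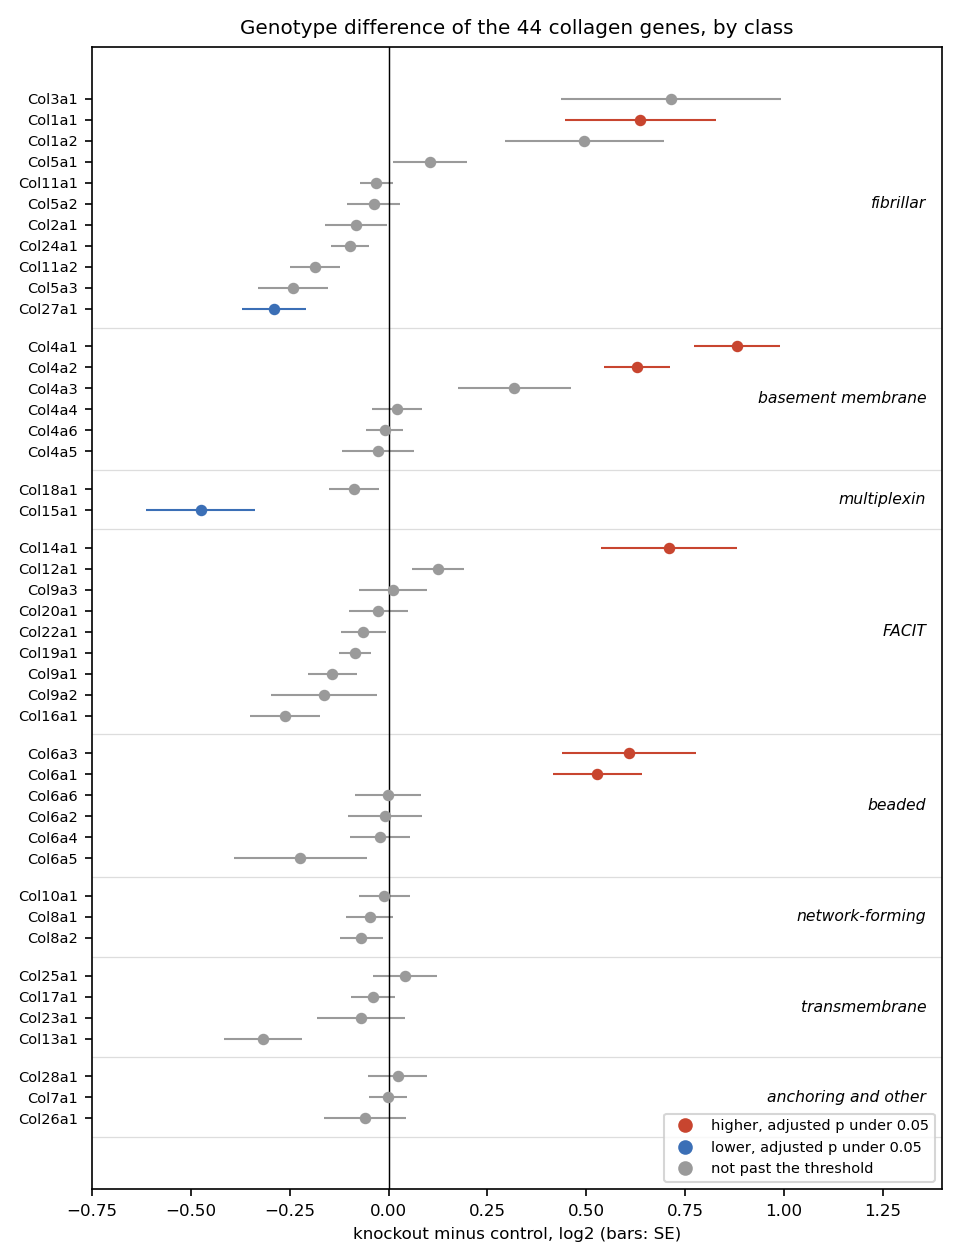
Genotype difference of each of the 44 collagen genes, knockout minus control in log2 units on the horizontal axis with bars of 1 SE of the limma fit, grouped by collagen class; red genes were higher and blue genes lower at an adjusted p under 0.05, and grey genes did not pass. Col4a1 lies farthest to the right at 0.88 and Col15a1 farthest to the left at -0.48, while most genes lie close to 0.

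Among the 6 type IV chains, the pair found in nearly all basement membranes rose and the 4 chains of restricted membranes did not pass. Col4a1 spanned 4.83 to 5.81 in controls with a median of 5.38, and 5.55 to 6.89 in knockouts with a median of 6.21. Only knockout replicate 9, the lowest of its group, lay within the control range, and the other 9 lay above the highest control. The difference was 0.88 ± 0.11 (SE), a 1.84-fold rise (adjusted p = 1.7e-04 in limma), with 0.91 in run 1 and 0.86 in run 2. Col4a2, its partner in the trimer, spanned 4.76 to 5.36 in controls with a median of 5.07, and 5.44 to 6.10 in knockouts with a median of 5.60. The groups did not overlap, which held for 1 collagen and for 0.0905% of all rows. In the opposite direction, 0 collagens and 0.0393% of all rows had every knockout liver below the lowest control. The rise was 0.63 ± 0.08 (SE), or 1.55-fold (adjusted p = 2.8e-04 in limma).

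Of the restricted chains, Col4a3, a chain of the kidney filter, spanned 3.27 to 3.75 in controls with a median of 3.48 and 3.32 to 5.04 in knockouts with a median of 3.75. The highest value belonged to knockout replicate 8, and the next highest knockout liver was at 3.84. Its difference was 0.32 ± 0.14 (SE; adjusted p = 0.19). Without knockout replicate 8 it was 0.18. Differences of Col4a4, Col4a5 and Col4a6 were 0.02 ± 0.06, -0.03 ± 0.09 and -0.01 ± 0.05 (SE), with adjusted p from 0.89 to 0.93 in limma. The mean of the 6 chains relative to the controls of that run lay between -0.11 and 0.10 in controls and between 0.12 and 0.60 in knockouts. Every knockout liver was thus above every control in this mean. It includes Col4a1 and Col4a2, which had passed, and so does not show a shift of the restricted chains.

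The multiplexins Col15a1 and Col18a1, which belong to the basement membrane zone of vessels and epithelia, did not follow Col4a1. Col15a1 spanned 4.02 to 5.46 in controls with a median of 4.55 and 3.86 to 5.07 in knockouts with a median of 4.13. The ranges overlapped widely, with 9 of 10 knockout livers below the run-matched control mean, that of the controls in the same run. The difference was -0.48 ± 0.14 (SE; adjusted p = 0.0391 in limma), with -0.26 in run 1 and -0.63 in run 2. The call was lost, with adjusted p up to 0.076, when any 1 of control replicates 2, 7, 8, 10 and 11 or knockout replicates 1, 3, 4, 8, 9 and 10 was left out, and it was lost without the run term (adjusted p = 0.12). Col18a1, the precursor of endostatin, differed by -0.09 ± 0.06 (SE; adjusted p = 0.47).

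**Figure D2:**
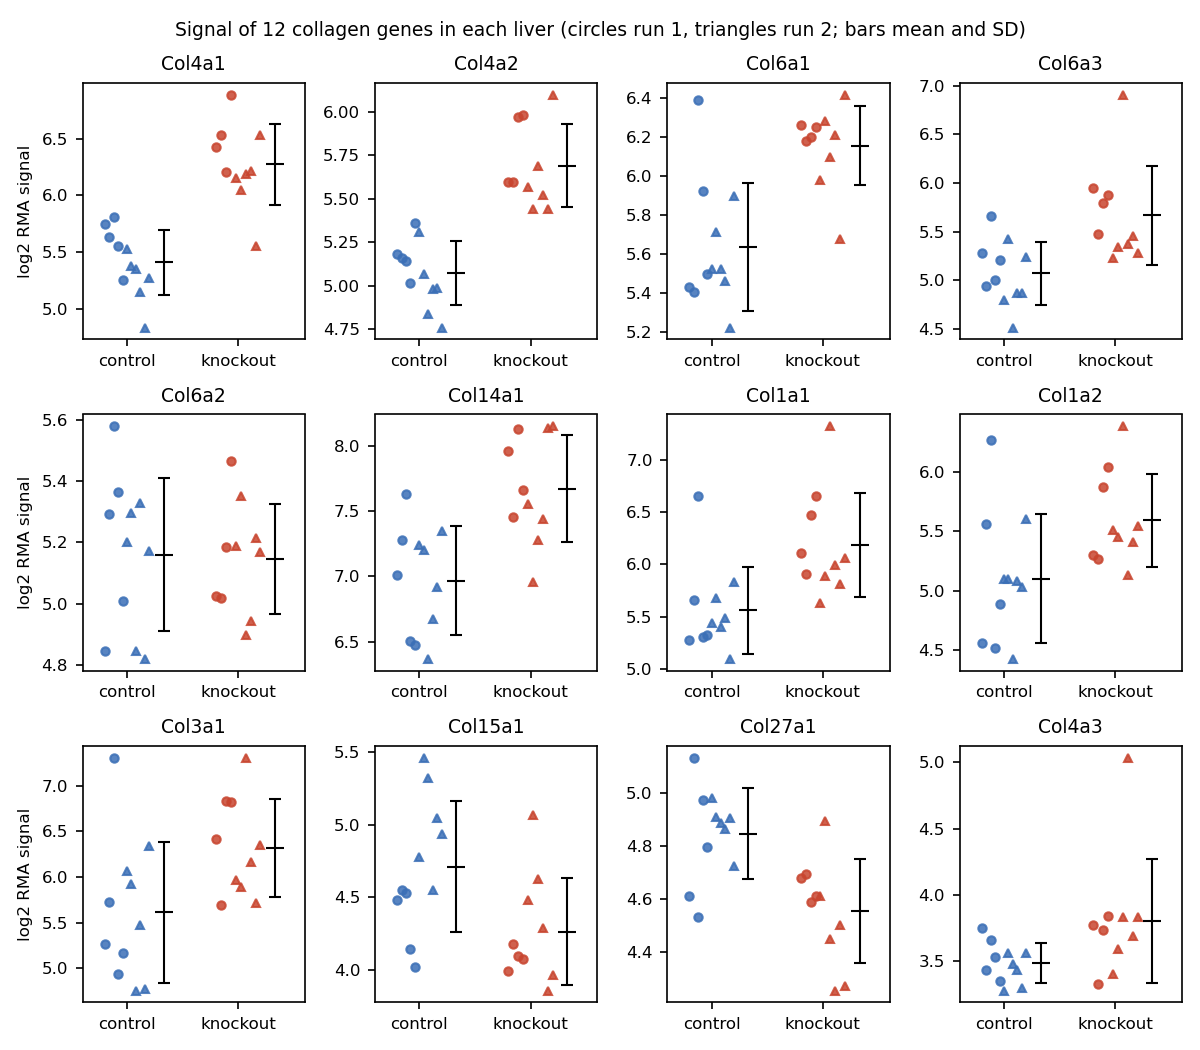
Log2 RMA signal of the 8 collagen genes that passed and of Col1a2, Col3a1, Col4a3 and Col6a2, 1 point per liver, control (blue) and knockout (red) livers side by side; circles are run 1, triangles run 2 and bars the mean and SD of the group. The groups are apart for Col4a2, with controls up to 5.36 and knockouts from 5.44, and overlap for every other gene drawn.

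The fibrillar class held the widest range of differences, from -0.29 to 0.71, with a class median of -0.04. The chains of types I and III were higher on average in the knockout livers, and of these Col1a1 alone passed. Col1a1 spanned 5.09 to 6.66 in controls with a median of 5.44, and 5.64 to 7.32 in knockouts with a median of 6.03. The highest control was replicate 3, and only knockout replicate 7 lay above it. The difference was 0.64 ± 0.19 (SE; adjusted p = 0.0447 in limma), or 1.56-fold, with 0.64 in run 1 and 0.63 in run 2 and all 10 knockout livers above the run-matched control mean. This call was close to the threshold: it was lost, with adjusted p up to 0.083, without any 1 of control replicates 1, 2 and 4 to 10 or knockout replicates 1, 3, 4, 7, 8 and 10, and it was 0.0504 without the run term. Without control replicate 3 the difference was 0.74 (adjusted p = 0.0097).

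Col1a2, the other chain of type I, spanned 4.42 to 6.27 in controls with a median of 5.08 and 5.13 to 6.39 in knockouts with a median of 5.48. Its difference was 0.50 ± 0.20 (SE; adjusted p = 0.14 in limma). Col3a1, the chain of type III, spanned 4.75 to 7.31 in controls with a median of 5.48 and 5.69 to 7.31 in knockouts with a median of 6.26. Its difference was 0.71 ± 0.28 (SE; adjusted p = 0.12), as large as that of Col14a1 but with a wider error. For both genes all 10 knockout livers were above the run-matched control mean, and the highest control was replicate 3. Without that liver Col1a2 differed by 0.61 (adjusted p = 0.032) and Col3a1 by 0.87 (adjusted p = 0.025). Control replicates 3 and 11 also held the highest level of the 6 smooth muscle markers, 0.73 and 1.09 above the run-matched control mean, against -0.36 to 0.32 in knockouts. These livers were not set apart by smooth muscle alone. They were highest in myofibroblast markers too, at 0.43 and 0.45. Control replicate 3 was the highest of all livers in Kupffer cell markers, at 1.29, and the highest control in B and plasma cell markers, at 0.92. The part of these markers in the collagen values was not tested.

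Chains of the minor fibrillar collagens did not rise. Col27a1 spanned 4.53 to 5.13 in controls with a median of 4.89 and 4.25 to 4.90 in knockouts with a median of 4.60. Of the knockout livers 9 lay below the run-matched control mean and 4 below the lowest control. The difference was -0.29 ± 0.08 (SE; adjusted p = 0.0328 in limma), with -0.17 in run 1 and -0.38 in run 2. It no longer passed, with adjusted p up to 0.061, without any 1 of control replicates 2, 4 and 6 to 10 or knockout replicates 3, 7, 8 and 10, nor with an intensity trend and robust prior (adjusted p = 0.052). Col5a3 and Col11a2 differed by -0.24 ± 0.09 and -0.19 ± 0.06 (SE; adjusted p = 0.098 and 0.077), and Col5a1 and Col5a2, chains of the type V that starts fibrils, by 0.10 and -0.04. Col2a1, Col11a1 and Col24a1 lay between -0.10 and -0.03 and did not pass.

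Of the 9 FACIT genes, Col14a1 passed. Col14a1, also known as undulin, spanned 6.37 to 7.63 in controls with a median of 7.01 and 6.95 to 8.15 in knockouts with a median of 7.61. The groups overlapped, with 5 of 10 knockout livers above the highest control and 9 above the run-matched control mean. The difference was 0.71 ± 0.17 (SE; adjusted p = 0.0162 in limma), or 1.64-fold, with 0.82 in run 1 and 0.63 in run 2. Col16a1 had all 10 knockout livers below the run-matched control mean, a difference of -0.26 ± 0.09 (SE) and an adjusted p of 0.076, so it did not pass. The other FACIT genes differed by -0.16 to 0.13.

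In type VI, Col6a1 and Col6a3 rose and Col6a2, whose product joins theirs in 1 trimer, did not pass. Col6a1 spanned 5.22 to 6.39 in controls with a median of 5.52, and 5.68 to 6.42 in knockouts with a median of 6.20. Control replicate 3 was the highest control and only 1 knockout liver lay above it, although all 10 were above the run-matched control mean. The difference was 0.53 ± 0.11 (SE; adjusted p = 0.0086 in limma), or 1.44-fold. Col6a3 spanned 4.51 to 5.66 in controls with a median of 5.001 and 5.23 to 6.91 in knockouts with a median of 5.47. The rise was 0.61 ± 0.17 (SE; adjusted p = 0.0334). Knockout replicate 7 held the top value, and without it the difference was 0.46 (adjusted p = 0.0161). The call was lost, with adjusted p up to 0.065, without any 1 of control replicates 2, 4, 6, 8 and 9 or knockout replicates 1, 3 and 4.

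Col6a2 spanned 4.82 to 5.58 in controls with a median of 5.20 and 4.90 to 5.47 in knockouts with a median of 5.18. Of its knockout livers 5 of 10 lay above the run-matched control mean. Its difference was -0.01 ± 0.09 (SE; adjusted p = 0.97), with a 95% interval from -0.20 to 0.19 that does not reach the estimates of its partners. Col6a4, Col6a5 and Col6a6 differed by -0.02, -0.22 and -0.00 and did not pass.

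None of the 10 network-forming, transmembrane, anchoring and other collagens passed in limma, and 1 had an unadjusted p under 0.05. That was the transmembrane Col13a1, which takes part in cell adhesion to the matrix. It spanned 4.88 to 5.69 in controls with a median of 5.33 and 4.45 to 5.24 in knockouts with a median of 4.98. All 10 knockout livers lay below the run-matched control mean and 3 below the lowest control, with a difference of -0.32 ± 0.10 (SE; adjusted p = 0.0519 in limma). It passed without any 1 of control replicates 5 and 10 or knockout replicates 1, 5 and 7, and when rows under the array median were left out (adjusted p = 0.036). Col8a2, of the endothelial type VIII, differed by -0.07 and Col26a1 by -0.06. Of the 36 collagens that did not pass, 24 differed by less than 0.1 and 7 by at least 0.2 in either direction. For 27 of them the 95% interval held 0. The median half-width of the interval over the 36 was 0.16. That interval is not adjusted for the number of rows, so a change larger than its half-width could also fail to pass. Col13a1 is an example, with an interval from -0.52 to -0.11.

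**Figure D3:**
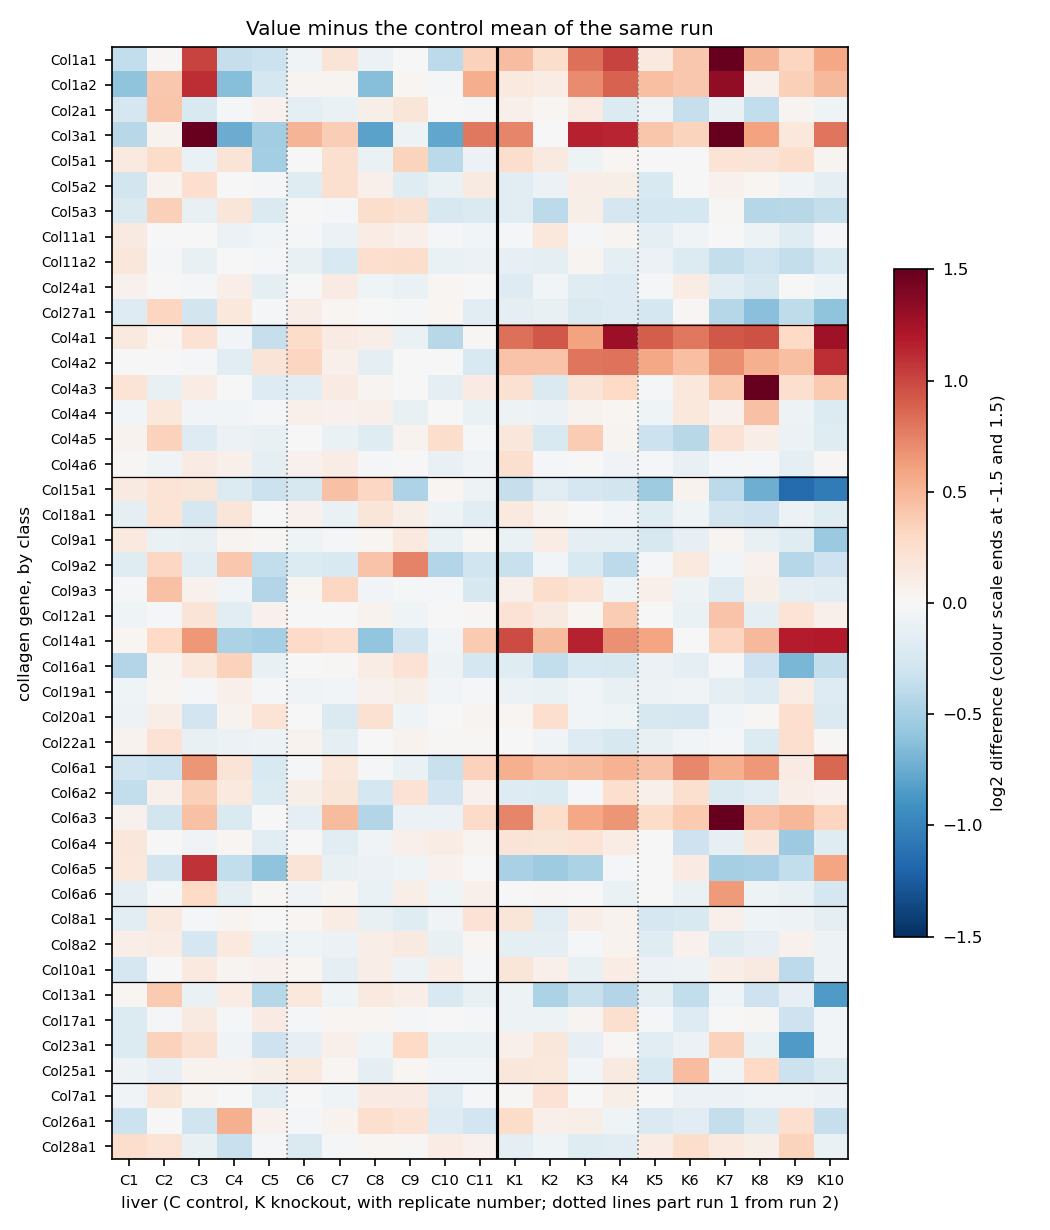
Log2 signal of the 44 collagen genes minus the run-matched control mean, genes in rows by class and the 21 livers in columns by genotype and run; red is higher and blue lower, on a scale that ends at 1.5 in either direction. Col4a1 and Col4a2 are red across the knockout columns, and control replicate 3 and knockout replicate 7 stand out in the rows of Col1a1 and Col3a1.

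Whether a difference changed between the runs was asked with a genotype by run term. Of the 44 collagens 0 passed in limma, 0.0315% of all rows did, and 1 collagen, Col6a4, had an unadjusted p under 0.05 (p = 0.0264), as did 10.2% of all rows; it differed by 0.17 in run 1 and -0.16 in run 2. Differences of Col4a1, Col4a2, Col1a1 and Col6a1 were within 0.06 of each other in the 2 runs. Run 1 alone, with 9 livers, gave 0 collagens and 3 rows in all in limma, with 5 higher and 0 lower collagens at an unadjusted p under 0.05, where 5.4% of all rows were higher and 6.42% lower. Run 2 alone, with 12 livers, gave 3 higher collagens and 1 lower, and 7 higher and 8 lower at an unadjusted p under 0.05, where 9.32% of all rows were higher and 12.8% lower.

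Genes were compared directly in 14 pairs, of which 10 share a trimer or lie side by side in the genome and 4 do not (Col1a1 with Col3a1, Col1a1 with Col4a1, Col15a1 with Col4a1 and Col8a1 with Col8a2), by the exact permutation test of the difference within a pair over 116424 arrangements of genotype within runs, two-sided and adjusted over the pairs. Unequal change passed in 4 pairs. Col6a1 rose by 0.54 more than Col6a2 (adjusted p = 0.0020), in all 10 knockout livers, although no protein-coding gene lies between them in the RefSeq annotation. Col3a1 rose by 0.75 more than its neighbour Col5a2 (adjusted p = 0.047), in all 10. Col11a1 and Col11a2 parted by 0.15 (adjusted p = 0.041), with the mean of Col11a1 under the array median. The other pair, Col15a1 and Col4a1, joins genes of different classes that had already passed in opposite directions, so its test (-1.36, adjusted p = 1.2e-04) restates those calls. The calls for Col3a1 with Col5a2 and for Col11a1 with Col11a2 were close to the threshold. Without each liver in turn, the difference within the pair spanned 0.65 to 0.89 for the former and 0.13 to 0.18 for the latter. That for Col3a1 and Col5a2 was lost, with adjusted p up to 0.091, without any 1 of control replicates 1, 2, 4, 5 and 7 to 10 or knockout replicates 1, 3, 4, 5, 7, 8 and 10. That for Col11a1 and Col11a2 was lost, with adjusted p up to 0.076, without any 1 of control replicates 2, 4, 5, 8 and 9 or knockout replicates 2, 4, 7, 8 and 10.

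In the head-to-head pair, Col4a1 rose by 0.25 more than Col4a2, which did not pass (adjusted p = 0.093), though it did without knockout replicate 3 or knockout replicate 9. The change of Col1a1 exceeded that of Col1a2 by 0.14 (adjusted p = 0.39) and fell short of that of Col3a1 by 0.08 (adjusted p = 0.86). Col6a1 and Col6a3 differed in change by -0.08 (adjusted p = 0.88). The difference of Col4a3 exceeded that of Col4a4 by 0.30 and did not pass (adjusted p = 0.053), though it did without any 1 of control replicates 1, 3 and 11 or knockout replicates 2, 5 and 6.

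Partner genes were also asked whether they varied together from liver to liver, with values centred on the mean of their genotype and run and 100000 permutations within those cells. Of the same 14 pairs, 2 passed after adjustment. Col1a1 and Col3a1 had Pearson r = 0.89 (permutation p = 1e-05, the smallest that can be reached; adjusted p = 1.4e-04) and Spearman rho = 0.84 (permutation p = 1e-05; adjusted p = 1.4e-04) over 21 livers. Within controls r was 0.92 and within knockouts 0.92, in run 1 it was 0.98 and in run 2 0.81. Without control replicate 3 and knockout replicate 7, the 2 livers farthest from the median of Col1a1, r was 0.82. Col1a1 and Col1a2 had r = 0.84 (permutation p = 2.4e-04; adjusted p = 0.0017) and rho = 0.77 (permutation p = 7.5e-04; adjusted p = 0.0053), with r = 0.95 in run 1, 0.75 in run 2 and 0.70 without the same 2 livers.

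The pair Col4a1 and Col4a2 moved with genotype but did not pass for covariation within genotype. Their r was 0.38 (permutation p = 0.14; adjusted p = 0.25) and rho 0.41 (permutation p = 0.096; adjusted p = 0.19), with r = 0.05 in controls and 0.57 in knockouts. Col6a1 and Col6a2 had r = 0.50 (permutation p = 0.058; adjusted p = 0.14) and rho = 0.42 (permutation p = 0.093; adjusted p = 0.19). For Col6a1 and Col6a2 r was 0.70 in the 11 controls and 0.00 in the 10 knockouts, and whether these differ was not tested.

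**Figure D4:**
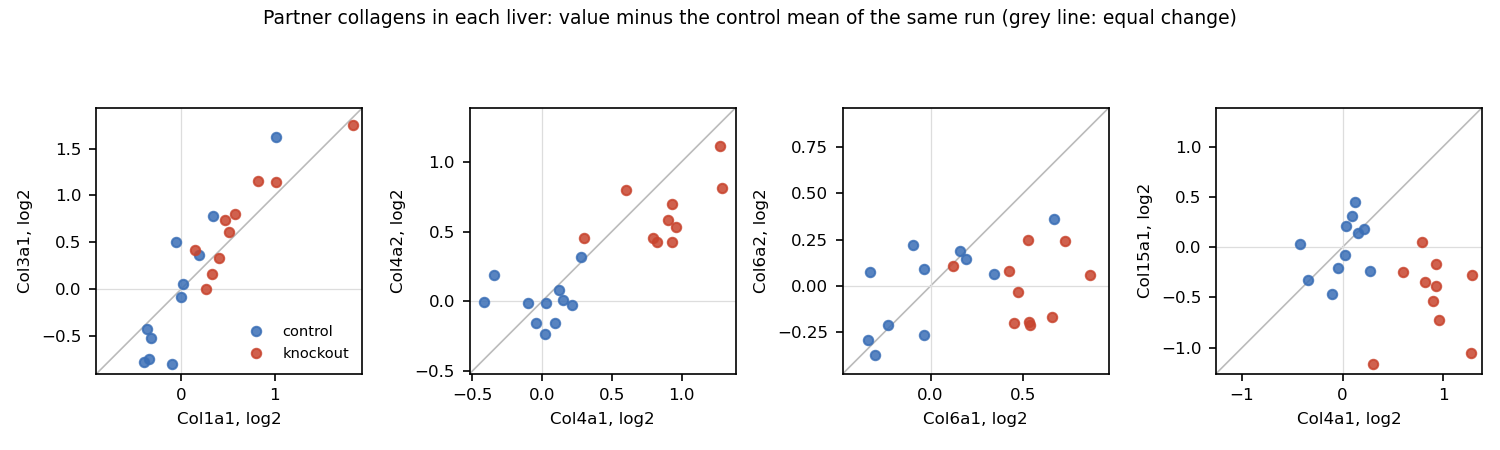
Log2 signals of partner genes minus the run-matched control mean, 1 point per liver (blue control, red knockout), with a grey line of equal change. Control and knockout livers form 1 line for Col1a1 with Col3a1, lie apart along both axes for Col4a1 with Col4a2, are shifted along Col6a1 alone for Col6a1 with Col6a2, and part in opposite directions for Col4a1 with Col15a1.

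The machinery that makes, assembles and removes collagen was followed with lists of known genes, whose counts stand beside 3.28% higher and 4.05% lower over all rows. In the endoplasmic reticulum, where chains are hydroxylated and folded, 3 of 23 measured genes were higher and 1 lower. P3h2, a prolyl 3-hydroxylase that acts on type IV chains, rose from 4.85 ± 0.15 (SD, n = 11) to 5.29 ± 0.20 (SD, n = 10), a difference of 0.45 ± 0.08 (SE; adjusted p = 0.0022 in limma). Kdelr2, a receptor that returns escaped proteins to the endoplasmic reticulum, rose by 0.39 ± 0.10 (SE; adjusted p = 0.021). P4hb, protein disulfide isomerase and a subunit of prolyl 4-hydroxylase, fell by 0.23 (adjusted p = 0.028). Crtap, the partner of prolyl 3-hydroxylase 1, rose by 0.51 ± 0.14 (SE; adjusted p = 0.036). Of 8 procollagen processing genes 0 passed (limma; 1 at an unadjusted p under 0.05), and the lowest p belonged to Pcolce, an enhancer of propeptide cleavage, with 0.37 ± 0.13 (SE; adjusted p = 0.097). Of 7 crosslinking genes 2 were higher, the transglutaminase Tgm2 by 0.76 ± 0.15 and the lysyl oxidase relative Loxl1 by 0.56 ± 0.15 (SE; adjusted p = 0.0045 and 0.027).

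Among 18 proteins that bind fibrils, 5 were higher and 1 lower. The small leucine-rich proteoglycans Bgn, Prelp and Lum rose by 0.71 ± 0.13, 0.66 ± 0.12 and 0.99 ± 0.24 (SE; adjusted p = 0.0036, 0.0023 and 0.015). Dcn, of the same family, and Sparc, a collagen-binding protein of matrix assembly, also rose, by 0.45 ± 0.12 and 0.57 ± 0.15 (SE). Fmod, which belongs to that family too, fell by 0.25 (adjusted p = 0.042). Of 15 basement membrane partners 3 were higher and 0 lower (limma). Nid1, which ties laminin to type IV collagen, spanned 5.28 to 6.88 in controls with a median of 6.18 and 6.45 to 8.73 in knockouts with a median of 7.73. Its ranges overlapped, with 7 of 10 knockout livers above the highest control, and its rise was 1.47 ± 0.25 (SE; adjusted p = 0.0019). The laminin chain Lamb1 rose by 0.77 ± 0.15 (SE; adjusted p = 0.0049), and Sparc counts in this list too.

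On the side of sensing and removal, 1 of 12 collagen receptors was higher, the inhibitory immune receptor Lair1, by 0.59 ± 0.13 (SE; adjusted p = 0.0079). Of 15 degradation genes and inhibitors 2 were higher. Timp3, an inhibitor of metalloproteinases bound to matrix, rose by 0.97 ± 0.16 (SE; adjusted p = 0.0015), with 9 of 10 knockout livers above the highest control. Ctsb, a lysosomal protease, rose by 0.29 ± 0.07 (SE; adjusted p = 0.015). Median differences were 0.12 for folding, 0.16 for crosslinking, 0.14 for fibril-associated proteins, 0.07 for basement membrane partners, 0.10 for receptors and 0.19 for degradation, with -0.04 for processing and -0.01 for all rows. Crtap, Dcn, Sparc among the fibril-associated proteins, and Fmod were named after their values were seen.

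**Figure D5:**
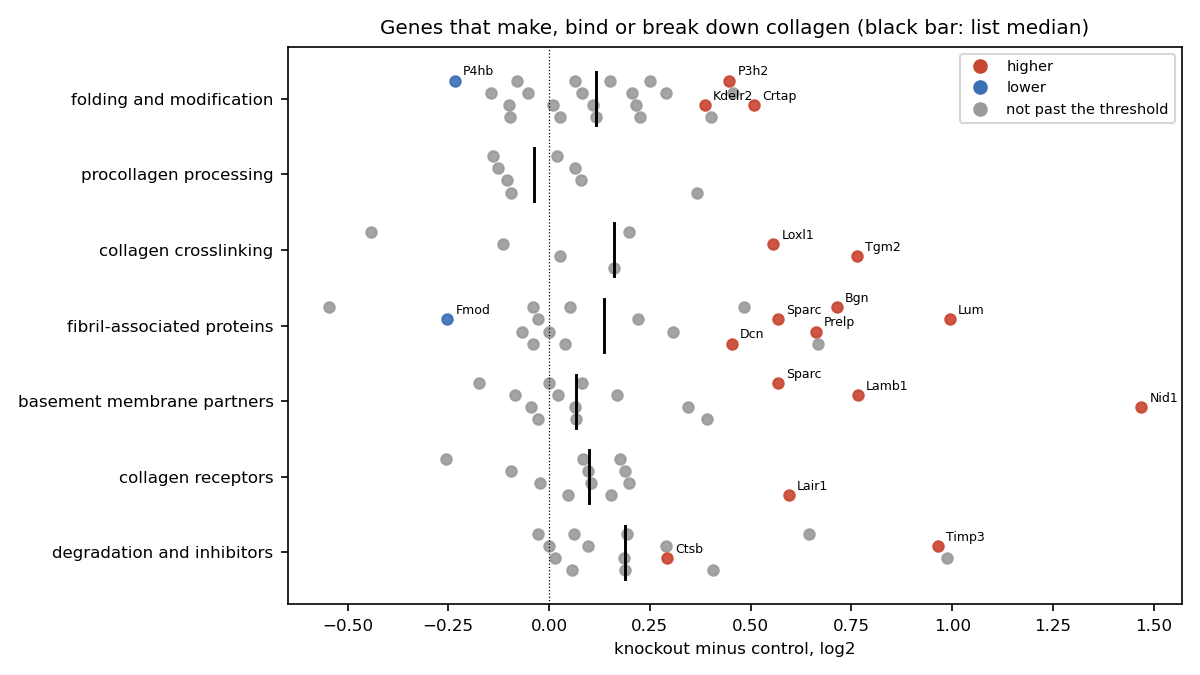
Genotype difference in log2 units, knockout minus control, of each gene in the 7 lists of collagen folding, processing, crosslinking, fibril-associated proteins, basement membrane partners, receptors and degradation, 1 point per gene, red for higher, blue for lower and grey for genes that did not pass, with a black bar at the list median. Nid1 lies farthest to the right at 1.47, and 16 of the 18 calls lie above 0. Sparc is drawn and counted in both of its lists. Over all rows 834 calls were higher and 1030 lower.

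Markers of cell types that could carry collagen transcripts moved with genotype as well, and their part in the collagen results was not tested. Beside the counts below, 3.28% of all rows were higher and 4.05% lower in limma. At an unadjusted p under 0.05 these shares were 9.41% and 13%. Of 9 measured markers of continuous endothelium 6 were higher and 0 lower; their mean relative to controls of the same run lay between -0.23 and 0.15 in controls and between 0.38 and 1.20 in knockouts. Of 10 markers of quiescent stellate cells 4 were higher, Cygb, Pdgfrb, Rgs5 and Reln, with a list level of -0.27 to 0.27 in controls and 0.12 to 0.58 in knockouts. The stellate markers Lrat, Des, Hand2, Ecm1, Colec11 and Ngfr did not pass, with differences from -0.01 to 0.34. Of 9 myofibroblast markers 1 was higher, Pdgfra, by 0.83 ± 0.20 (SE, adjusted p = 0.015 in limma). Acta2 differed by 0.34 ± 0.31 and Timp1 by 0.19 ± 0.08 (SE), neither passing. Cthrc1, Thy1 and Tagln differed by -0.17, -0.07 and -0.07 and did not pass either. In all, 6 of these markers lay above 0 and 3 below. Of 15 sinusoidal endothelial markers 10 were lower and 0 higher, with a list level from -0.35 to 0.51 in controls and from -0.87 to -0.23 in knockouts. Of the 9 portal fibroblast and mesothelial, 6 smooth muscle and 8 cholangiocyte markers 0 passed in limma, where 2, 0 and 1 of them were higher and 1, 0 and 1 lower at an unadjusted p under 0.05. Cholangiocyte markers were highest in knockout replicate 7, at 0.73, the liver with the highest Col1a1 and Col6a3. The list level of portal fibroblast and mesothelial markers was highest in that liver too, at 0.30, against up to 0.12 in controls. Of markers of Kupffer cells, B and plasma cells and neutrophils, 4 of 7, 4 of 7 and 1 of 7 were higher. All 7 neutrophil markers were higher at an unadjusted p under 0.05, with a median difference of 1.52. Their list level lay between -0.12 and 0.13 in controls and between 0.28 and 5.93 in knockouts, highest in knockout replicate 6.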

How the data were processed

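The deposited table held log2 values that the authors made with RMA, per the submitters' processing notes; RMA subtracts background, forces the arrays to 1 distribution and summarises the probes of a gene, so a change shared by all genes is removed and differences of dim genes are compressed. The RMA version, array type and genome build are not given in the sources used here. Each row is an Entrez gene number; 24705 rows had 1 platform symbol and 723 none. Sorted values of the arrays differed by at most 0.0019. The number of arrays limits the precision. The labels call the samples biological replicates, so each array was taken as 1 animal.

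Genotype and run were fitted in R 4.3.3 with the lmFit and eBayes functions of limma 3.58.1 over all 25428 rows and 21 arrays, with Benjamini-Hochberg adjustment over all rows and a threshold of 0.05. The runs are consecutive description numbers, which the labels do not call batches. On simulated data with 100 genes changed by each size, the genotype test recovered 86% at a log2 change of 0.5 and 99% at 1. There were 11 false calls among the unchanged of 25428 genes. The changed genes were picked at random outside the collagens. The median SE over all rows was 0.078, against 0.20 for Col1a2 and 0.28 for Col3a1, so these shares do not describe such genes. Genes named were all collagens past the threshold, Col1a1, Col1a2, Col3a1, Col4a1 to Col4a6, the member of each class with the lowest p, and up to 3 members of each pathway list that passed, or else the 1 with the lowest p. The members and lists were chosen with earlier results of these data known. Some listed genes were not analysed here. A list level averages, over the genes of a list, the run-matched difference from the controls. Tried as alternatives were a replicate number block, dropping the run term, each run alone, array weights, other scalings, a filter on dim rows, a robust prior with an intensity trend, and leaving out each liver in turn; leaving out control replicates 3 and 11 together, which had the highest smooth muscle markers, was chosen after seeing the data. Figures were drawn with matplotlib 3.10.9.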

Additional observations from a re-analysis of the deposited data

Results flagged for a closer look

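In the 10 knockout livers, 9 of 44 collagen genes had 1 liver far from the rest by Dixon's ratio, a rule that chance meets in about 1 in 20 groups of normal values and that 9.81% of all 25428 rows met here, against 20.5% of the collagens. Whether these shares differ was not tested. The liver stood above the others for Col4a3 (knockout replicate 8, 5.04, next 3.84), Col4a6 (knockout replicate 1, 3.58, next 3.37), Col6a3 (knockout replicate 7, 6.91, next 5.95), Col6a6 (knockout replicate 7, 4.52, next 3.87) and Col7a1 (knockout replicate 2, 3.97, next 3.84). It stood below the others for Col9a1 (knockout replicate 10, 3.09, next 3.41), Col16a1 (knockout replicate 9, 4.07, next 4.39), Col13a1 (knockout replicate 10, 4.45, next 4.83) and Col23a1 (knockout replicate 9, 3.76, next 4.46). Values are log2 signals. Knockout replicates 7, 9 and 10 account for 2 of these genes each. The 11 controls were not tested in this way.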

How the results depend on the processing

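The collagen counts, 6 higher and 2 lower, came to 5 and 1 without the run term, 0 and 0 in run 1 alone, 3 and 1 in run 2 alone, 6 and 3 without dim rows, 6 and 1 with an intensity trend and robust prior, and 8 and 1 with control replicates 3 and 11 left out. Without each liver in turn, higher collagens ranged from 4 to 8 and lower ones from 0 to 3, and pairs with unequal change from 2 to 5; covarying pairs stayed at 2. Calls for Col4a1, Col4a2, Col6a1 and Col14a1 were kept without any 1 liver. Replicate numbers do not pair the livers (correlation of deviations -0.05 to 0.17, over 0.1 in 2 of 10 pairs); with the replicate number as a block the counts were 5 and 2, and Col1a1 was at adjusted p = 0.055. In run 1 alone 15 collagens turned sign, 34.1%, against 25.8% of all rows. Of these 15, 0 were among those that passed, and each lay within 0.087 of 0 over both runs. Of the genes followed by name, Col4a4 was -0.022, Col4a5 0.092, Col4a6 0.042 and Col26a1 0.094, and with array weights Col4a6 was 0.011. Without each liver in turn the differences spanned -0.024 to 0.047 for Col4a4, -0.073 to 0.011 for Col4a5 and -0.039 to 0.0037 for Col4a6. Over the same omissions, unequal change spanned -0.063 to 0.026 for Col4a5 and Col4a6, -0.15 to 0.068 for Col6a1 and Col6a3, -0.014 to 0.052 for Col8a1 and Col8a2, and -0.039 to 0.064 for Col9a1 and Col9a2. There r spanned -0.022 to 0.42 for Col15a1 and Col4a1, -0.085 to 0.68 for Col4a3 and Col4a4, -0.13 to 0.075 for Col4a5 and Col4a6, and -0.19 to 0.077 for Col5a1 and Col5a2. Where an alternative left out livers or fitted 1 run, fewer samples were tested; other causes were not tested.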
